A study of Mus musculus with 10 samples.

Results

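The 10 genes described here are Hk2, Gpd2, Scd2, Slc38a2, Gsk3b, Ywhab, Parvb, Gnl3l, D10Wsu102e and Natd1. They come from a list of 41 genes whose RNA the study assigned to both the RNA helicase MOV10, in testis, and the helicase UPF1, in mouse embryonic stem cells. All 41 were found among the 55421 genes of the count files, and the other 31 serve for comparison. The MOV10 side of that list was drawn up on the ratio of MOV10 CLIP-seq to P21 testis RNA-seq, so the CLIP-seq values of the 10 genes are given as a description, with no test. The UPF1 side rests on other cells and on data not analysed here.

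The study asked which RNAs MOV10 touches in the young mouse testis and what happens to the transcriptome without it. MOV10 CLIP-seq was done on testes of wild type mice aged 21 days (P21), with 4 libraries (replicates 1, 2, 3 and 5), and mRNA-seq from whole P21 testes of 3 wild type (replicates 1, 2 and 3) and 3 Mov10-/- mice (replicates 2, 3 and 4). In the Mov10-/- mice a block of exons that includes the first helicase domain was removed by Actb-Cre, which acts in all cells, so that the gene is disrupted in germ cells and somatic cells alike and from early development on. The mice have a mixed 129, C57BL/6 and FVB background, part of the Mov10-/- embryos die, and the animals studied are survivors. The wild type mice carry intact alleles, and no treatment is named for either genotype.

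MOV10 moves along RNA and is found mostly on 3′ UTRs, the untranslated stretch behind the coding region, where it unwinds structures and displaces proteins. UPF1, a related helicase and a binding partner of MOV10, is the central factor of nonsense-mediated decay, the pathway that degrades mRNAs on which translation stops too early and also many normal mRNAs with long 3′ UTRs. In testis such RNA-binding helicases act on a transcriptome that changes quickly as germ cells pass from spermatogonia through meiosis to spermatids.

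In CLIP-seq, ultraviolet light links a protein to the RNA it touches, the complex is recovered with an antibody, and adapters are ligated to the RNA fragments for sequencing. The adapter joined to the 5′ end is shown because its random bases mark single RNA fragments, which matters where a gene has only a handful of reads. The capitals mark the 4 random bases.
RL5: agggaggacgaugcggNNNNg
Whether these bases were used to collapse copies of the same fragment is not given in the sources used here, so reads are counted as deposited.

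Depth differed greatly between the assays. Reads on genes numbered 5083407 to 9230540 in an RNA-seq library and 3404 to 4934 in a CLIP-seq library, where 1 read is worth 203 to 294 RPM (reads scaled to the library total) and a count of 0 allows up to 3 reads. Among CLIP-seq replicates 1, 2 and 3 the differences were smaller than sampling noise (chi-square over degrees of freedom 0.219 to 0.237, against 1.63 to 1.93 for each of them and replicate 5), and they were averaged and counted as 1 library, so that n = 2 for CLIP-seq. The targeted gene Mov10 checks the labels, at 114, 96.8 and 119.8 CPM (RPM after TMM scaling) in wild type and 29.2, 26.7 and 26.8 CPM in Mov10-/- testes (log2 fold change -2.0 ± 0.12 SE, adjusted p = 0.00552, edgeR quasi-likelihood test with Benjamini-Hochberg adjustment). Upf1 had 179, 221 and 225 CPM in wild type and 193, 306 and 233 CPM in Mov10-/- testes, groups that overlap (log2 fold change 0.22 ± 0.18 SE, adjusted p = 0.543 in the same test), and neither Mov10 nor Upf1 had a CLIP-seq read. Markers of germ cells and of somatic testis cells were expressed, as their summed levels at the end show, except that Rhox5, a Sertoli cell marker, had 0 reads in wild type and Insl3, a Leydig cell marker, had a mean of 0.339 CPM there.

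The 10 genes together carried 28, 24, 28 and 42 CLIP-seq reads in replicates 1, 2, 3 and 5. That is 0.701% to 0.851% of the reads on genes per library, with 95% Wilson intervals that run from 0.471% to 1.19%. In RNA-seq the same genes held 0.112% to 0.135% of the reads on genes in wild type and 0.124% to 0.153% in Mov10-/- libraries. With reads on genes as the total, their share was thus larger in every CLIP-seq library than in any RNA-seq library, and the list was selected on a measure of this kind. With all reads placed on the genome as the total, the share was 0.0645%, 0.0736%, 0.0809% and 0.150% in CLIP-seq replicates 1, 2, 3 and 5 against 0.0800% to 0.112% in the RNA-seq libraries, so that replicate 5 alone lay above all of them. The intervals cover counting error only, since sequenced copies of a fragment are not independent molecules.

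The reads were unevenly spread over the 10 genes, from 2 for Gsk3b to 29 for D10Wsu102e, summed over the 4 libraries. At least 10 CLIP-seq reads were reached by 6 of the 10, D10Wsu102e, Parvb, Scd2, Ywhab, Gnl3l and Natd1, against 1.31% of the 20240 genes tested between the genotypes. Slc38a2 with 6 reads, Gpd2 with 4, Hk2 with 3 and Gsk3b with 2 did not reach that minimum. The member just inside it was Natd1 with 11 reads and the one just outside was Slc38a2. This minimum adds up replicates 1, 2, 3 and 5 as separate libraries. With replicates 1, 2 and 3 averaged and counted as 1 library, D10Wsu102e had 17 reads, Parvb 12 and Scd2 10.7. On that count Ywhab and Natd1 had 7 reads and Gnl3l 5.33, under 10 in each case.

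**Figure D1:**
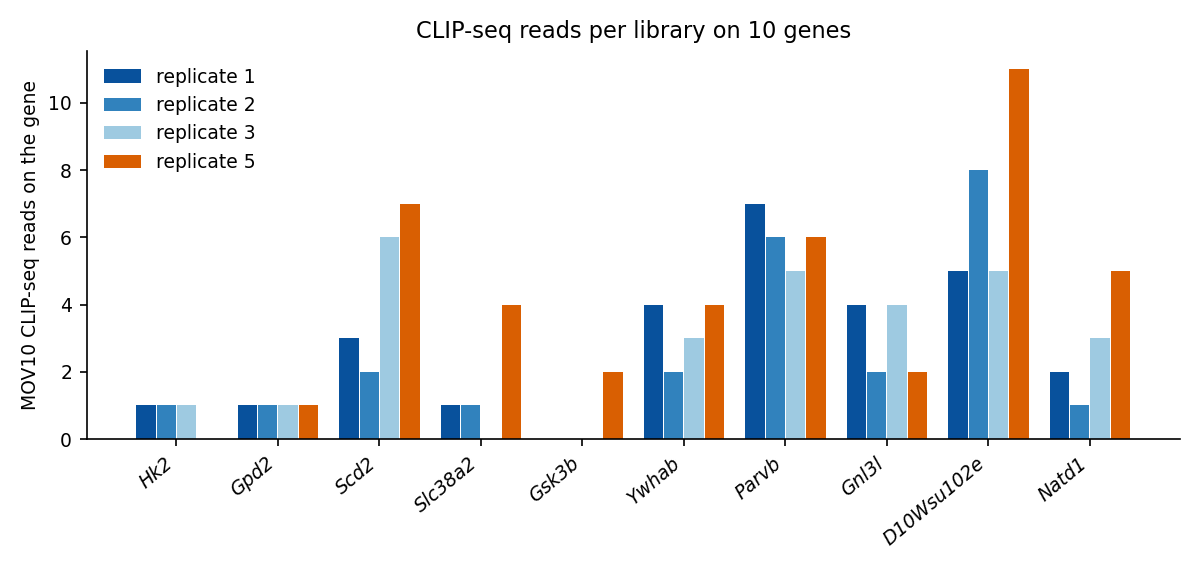
Number of MOV10 CLIP-seq reads (y axis) on each of the 10 genes (x axis), with 1 bar per library, blue for replicates 1, 2 and 3 and orange for replicate 5. D10Wsu102e, Parvb and Scd2 have the most reads in all, and Gsk3b has 2 reads, which come from replicate 5.

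Binding was expressed as the mean RPM in CLIP-seq over the mean RPM in wild type RNA-seq. Parvb had the highest ratio of the 10 genes, 23.3, followed by Gnl3l with 13.5 and D10Wsu102e with 13.1, and these 3 exceed 10, the limit used here for high binding. The study drew up its list with the same limit, and with the ratios computed here 3 of the 41 listed genes passed it with at least 10 reads in each assay. The study took all mapped reads as the total for its CLIP-seq RPM, while the ratio here takes reads on genes. The 2 ratios are therefore unlike measures. How the study scaled the RNA-seq side of its ratio is not given in the sources used here. Of the 268 genes that reached 10 reads in CLIP-seq and in wild type RNA-seq, 39.9% had a ratio above 10 and the median ratio was 8.46. Ywhab (7.19), just outside the limit, Natd1 (5.76) and Scd2 (5.04) reached the minimum with lower ratios. The ratios of the genes under the minimum were 3.94 for Slc38a2, 2.56 for Gpd2, 1.65 for Gsk3b and 0.984 for Hk2, so that 9 of the 10 genes had a ratio above 1. Without CLIP-seq replicate 5, Slc38a2 stood at 1.44, Gsk3b at 0 and Hk2 at 1.97.

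The size of the ratio depends on what is taken as a library's total. With all reads placed on the genome as the total, or with TMM scaling across both assays, 0 of the 10 genes were above 10, and the number among all genes fell from 107 to 19 and 20. Parvb then stood at 4.29 and 5.18. Under each of these scalings 6 of the 10 genes were above 1, and Slc38a2 (0.894 and 0.962), Gpd2 (0.469 and 0.561), Gsk3b (0.408 and 0.418) and Hk2 (0.136 and 0.195) were below. With Mov10-/- RNA-seq in the denominator 2 of the 10, Parvb and D10Wsu102e, were above 10.

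**Figure D2:**
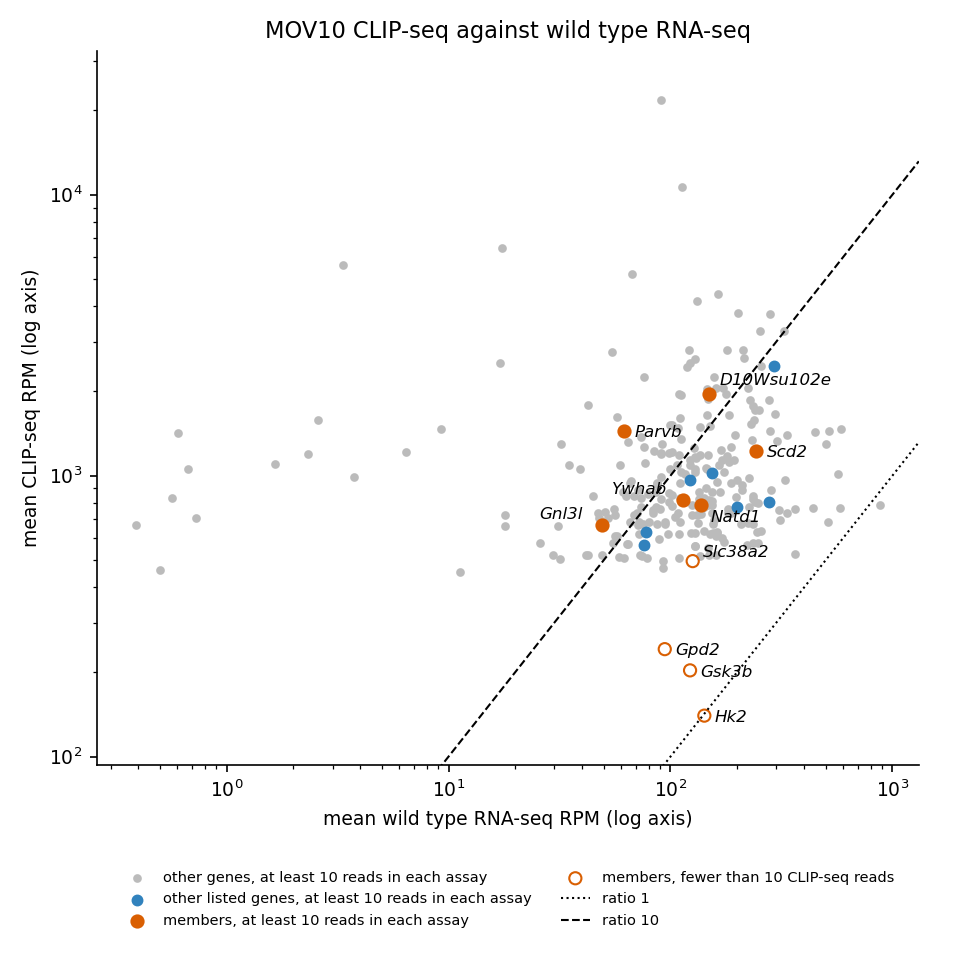
Mean CLIP-seq RPM (y axis) against mean wild type RNA-seq RPM (x axis), both on log axes, for the 268 genes that reached 10 reads in both assays and for the 10 members, filled where they reach that minimum and open where they do not. Parvb, Gnl3l and D10Wsu102e lie above the dashed line of ratio 10, and Hk2 lies just under the dotted line of ratio 1.

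A long 3′ UTR was common to the 10 genes, a feature the selection did not use directly. In the annotation of GENCODE release M21 (GRCm38, the assembly also called mm10), the 3′ UTR of the representative transcript was 1863 nucleotides in Ywhab, 2285 in Hk2, 2657 in Parvb, 2735 in Slc38a2, 2963 in Gnl3l, 3242 in Gpd2, 3664 in Scd2, 3759 in Natd1 and 5515 in Gsk3b. The median of the 10 was 3102.5 nucleotides, and all 10 lay above the median of 921 nucleotides of the 15724 protein-coding genes tested that have a value. A 3′ UTR above 1500 nucleotides was found in all 10 and in 33.8% of those genes. It was also found in 73.7% of the 247 protein-coding genes that reached 10 reads in both assays, whose median was 2717 nucleotides, and the other 31 listed genes had a median of 3309 nucleotides. A long UTR is therefore shared with the CLIP-seq genes at large and is not particular to the 10. The files hold no read positions, so where in these transcripts the CLIP-seq reads lie was not analysed here.

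The annotated transcript of D10Wsu102e stands apart. Its last exon, exon 4, spans chromosome 10 from 83365704 to 83488505 on the plus strand, a length of 122802 nucleotides, and its 3′ UTR of 122583 nucleotides is the longest of all protein-coding genes tested. The RefSeq table for the same assembly ends the gene at 83368835, a span of 8615 bases. A single other annotated gene, Aldh1l2 on the minus strand, overlaps this exon, and it had 0 CLIP-seq reads and 76 reads over the 3 wild type libraries (whether the counting used strand is not stated). The 29 CLIP-seq reads of D10Wsu102e are thus the most of the 10 genes in number, but per length they are few, with 0.0589 reads per kb of exon and library over the 4 libraries, against 0.0509 for Gsk3b, 0.961 for Ywhab and 1.36 for Parvb. Which gene model the counting used for this locus is known only by its annotation version, which differs from the one read here.

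**Figure D3:**
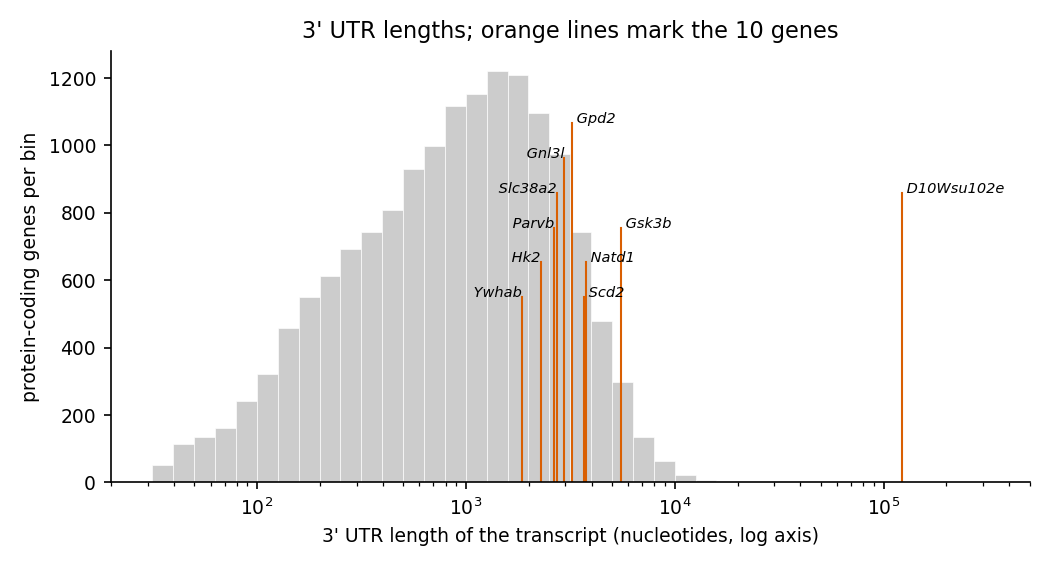
Distribution of 3′ UTR length (x axis, nucleotides, log axis) over the protein-coding genes tested between the genotypes (y axis, genes per bin, lengths under about 30 nucleotides not drawn), with an orange line for each of the 10 genes. 9 of the 10 lie between 1863 and 5515 nucleotides, in the right part of the distribution, and D10Wsu102e lies far to the right of all others.

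Wild type levels were compared per length of exon, as TMM-scaled CPM per kb (here RPKM). Scd2 was highest with 44.7 ± 4.39 RPKM (SD, n = 3), followed by Ywhab with 33.8 ± 4.25, Natd1 with 32.4 ± 0.793 and Hk2 with 23.9 ± 3.60 RPKM. Gpd2 (14.6 ± 8.13), Slc38a2 (14.3 ± 2.23), Parvb (14.0 ± 2.22), Gsk3b (12.5 ± 0.660) and Gnl3l (8.81 ± 3.70) came next and D10Wsu102e was last with 1.21 ± 0.280 RPKM, a value that rests on its long annotated exon. The 3 libraries of Scd2 lay above those of Ywhab, those of Natd1 above those of Hk2 and those of Gnl3l above those of D10Wsu102e. The libraries of all other neighbours in this order overlapped, so that their order is not resolved.

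Without MOV10, 0 of the 10 genes passed the call of the comparison, which asked for more than a 2-fold change at a Benjamini-Hochberg adjusted p below 0.05 (quasi-likelihood test of edgeR) and where 0.00494% of the 20240 genes tested did (Mov10 itself). All 10 were tested. DESeq2, edgeR's exact test and limma voom called 5.13%, 5.44% and 0.00988% of all genes, and each of them also 0 of the 10. At an unadjusted p under 0.05 there was 1, Gpd2, on the lower side, where 11.9% of all genes lay, and 0 on the higher side, where 5.58% lay. In 1 gene, Natd1, every Mov10-/- library lay above every wild type library (11.9% of all genes), and in 0 every one lay below (14.1% of all genes). The log2 fold change was above 0 in 8 of the 10, against 53.8% of all genes tested, with a median of 0.18 against 0.03. The counts past a threshold and of groups apart are thus near or under the background, while the share above 0 is higher than over all genes. The list was selected on a ratio to P21 testis RNA-seq, and whether the wild type libraries used here were that denominator is not given in the sources used here. In whole testis, fewer cells of a type and less RNA per cell cannot be told apart.

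**Figure D4:**
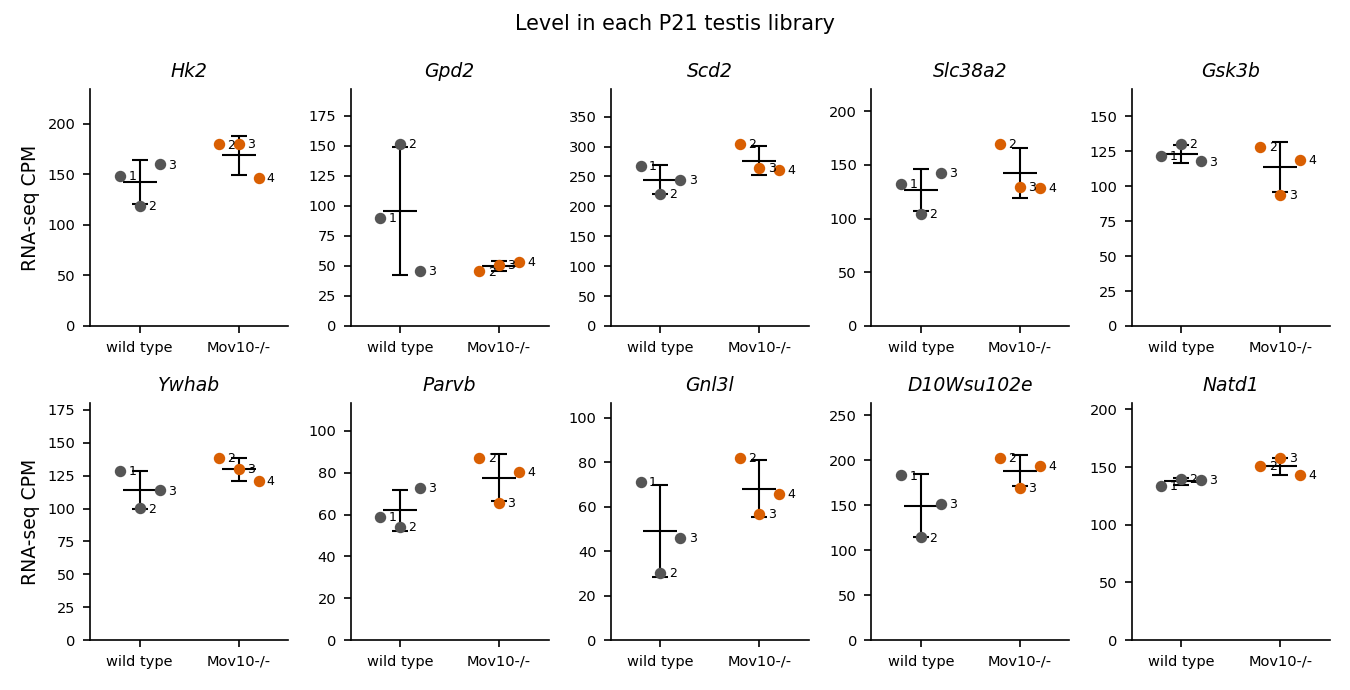
TMM-scaled CPM (y axis, from 0) of each of the 10 genes in the 3 wild type (grey) and 3 Mov10-/- (orange) P21 testis libraries, labelled with their replicate number, with a black bar for the mean and its SD. The groups overlap in 9 genes and lie apart in Natd1. Wild type replicate 2 is the lowest wild type library in 7 of the 10, and in 43.5% of all genes tested.

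Of the genes of metabolism, Hk2 (ENSMUSG00000000628, chromosome 6, 82725025 to 82774454, minus strand) encodes hexokinase 2, which traps glucose in the cell by phosphorylating it. It had 1, 1, 1 and 0 CLIP-seq reads in replicates 1, 2, 3 and 5. Its level was 149, 119 and 160.0 CPM in wild type and 179.8, 181 and 147 CPM in Mov10-/- testes. Replicate 4 of the Mov10-/- testes lay within the wild type range, and the log2 fold change was 0.24 ± 0.14 SE (95% interval -0.08 to 0.57, adjusted p = 0.409). It was 0.13 without wild type replicate 2 and 0.34, with the groups apart, without Mov10-/- replicate 4. In its family, Hk1 had the highest wild type level, 27.9 ± 9.04 RPKM, and also 3 CLIP-seq reads.

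Gpd2 (ENSMUSG00000026827, chromosome 2, 57237635 to 57370719, plus strand) encodes the mitochondrial glycerol-3-phosphate dehydrogenase, which passes electrons from the cytosol to the respiratory chain. It had 1 CLIP-seq read in each of the 4 libraries. Its level was 90.0, 152 and 45.5 CPM in wild type and 45.3, 51.0 and 53.2 CPM in Mov10-/- testes. The 3 Mov10-/- libraries were close together, the wild type libraries were spread widely, and wild type replicate 3 lay within the Mov10-/- range. The log2 fold change of -0.94 ± 0.37 SE (95% interval -1.80 to -0.08, unadjusted p = 0.0365, adjusted p = 0.253) was the largest of the 10 in size and became -0.44 without wild type replicate 2 (unadjusted p = 0.136). Without wild type replicate 3 it was -1.29 (unadjusted p = 0.000585, adjusted p = 0.0659), with every Mov10-/- library below the remaining wild type libraries. Wild type replicate 2 also had the highest summed level of 15 spermatid markers, 1095 CPM against 504 and 391 CPM in the other wild type and 201 to 378 CPM in the Mov10-/- libraries, and the part of spermatids in the values of Gpd2 was not tested. The paralog Gpd1 had 7 CLIP-seq reads and a log2 fold change of 0.30 ± 0.17 SE (adjusted p = 0.393).

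Scd2 (ENSMUSG00000025203, chromosome 19, 44293674 to 44306864, plus strand) encodes a stearoyl-CoA desaturase, which makes monounsaturated fatty acids. CLIP-seq gave it 3, 2, 6 and 7 reads, a total of 18. Its level was 268, 220.4 and 245 CPM in wild type and 305, 264 and 261 CPM in Mov10-/- testes. The lower Mov10-/- libraries lay just under the highest wild type one, and the log2 fold change was 0.18 ± 0.11 SE (95% interval -0.08 to 0.44, adjusted p = 0.451). It was 0.10 without Mov10-/- replicate 2, 0.11 without wild type replicate 2 and 0.24, with the groups apart, without wild type replicate 1. Its paralog Scd1, also on the list of 41, had 0 CLIP-seq reads at 8.0 ± 3.15 RPKM in wild type, and Scd3 had 7 reads at 1.44 ± 0.484 RPKM. These desaturase genes are close copies of each other, so that the split of reads between them is uncertain.

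Slc38a2 (ENSMUSG00000022462, chromosome 15, 96687392 to 96699730, minus strand) encodes a sodium-coupled carrier of neutral amino acids. Of its 6 CLIP-seq reads 4 came from replicate 5, with 1, 1 and 0 in replicates 1, 2 and 3. Its level was 132, 104 and 142 CPM in wild type and 169.8, 129 and 128 CPM in Mov10-/- testes. Mov10-/- replicate 2 lay above all others, the remaining libraries were mixed, and the log2 fold change of 0.17 ± 0.16 SE (95% interval -0.19 to 0.54, adjusted p = 0.597) became 0.03 without that library and 0.06 without wild type replicate 2. In its family, Slc38a10 had the highest wild type level per length, 27.6 ± 0.856 RPKM, and 4 CLIP-seq reads.

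Of the genes of signaling and adhesion, Gsk3b (ENSMUSG00000022812, chromosome 16, 38089001 to 38246084, plus strand) encodes a kinase of the Wnt and insulin pathways. It had 0, 0, 0 and 2 CLIP-seq reads, so that replicates 1, 2 and 3 held none. Its level was 122, 131 and 118 CPM in wild type and 128, 93.5 and 119 CPM in Mov10-/- testes. A single library, Mov10-/- replicate 3, lay below the rest. That library had the fewest reads on genes in RNA-seq, 5083407, and 57.2% of its reads were not aligned (26.5% to 35.9% in the other RNA-seq libraries). The log2 fold change of -0.12 ± 0.13 SE (95% interval -0.42 to 0.18, adjusted p = 0.669) was 0.00 without that library and -0.21 without Mov10-/- replicate 2. The paralog Gsk3a, at 35.7 ± 1.08 RPKM in wild type, had 0 CLIP-seq reads.

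Ywhab (ENSMUSG00000018326, chromosome 2, 163994960 to 164018588, plus strand) encodes an adaptor protein that binds phosphorylated serines in many signaling proteins. It had 4, 2 and 3 CLIP-seq reads in replicates 1, 2 and 3, which count as 1 library, and 4 in replicate 5. Its level was 129, 100.1 and 114 CPM in wild type and 138, 130.1 and 121 CPM in Mov10-/- testes. Wild type replicate 1 lay among the Mov10-/- libraries, and the log2 fold change was 0.18 ± 0.12 SE (95% interval -0.09 to 0.46, adjusted p = 0.46). It was 0.10 without wild type replicate 2 and, with the groups apart, 0.27 without wild type replicate 1 and 0.23 without Mov10-/- replicate 4. Its paralog Ywhag, which is not on the list of 41, had more CLIP-seq reads than Ywhab, with 5, 3, 3 and 19 and a ratio of 20.5. Ywhag had a log2 fold change of 0.33 ± 0.13 SE (adjusted p = 0.247) with every Mov10-/- library above every wild type library. Ywhae, the highest of the family in wild type with 50.8 ± 2.47 RPKM, had 1 CLIP-seq read.

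Parvb (ENSMUSG00000022438, chromosome 15, 84232043 to 84315688, plus strand) encodes beta-parvin, an actin-binding protein of focal adhesions. It had 7, 6 and 5 CLIP-seq reads in replicates 1, 2 and 3, which count as 1 library, and 6 in replicate 5. In replicate 5 alone its ratio was 19.7, with an exact Poisson interval of 7.23 to 42.9, and in the average of replicates 1, 2 and 3 it was 27.0. Its level was 58.9, 54.1 and 72.9 CPM in wild type and 87.1, 65.6 and 80.5 CPM in Mov10-/- testes. The groups overlap by 1 library on each side, and the log2 fold change was 0.33 ± 0.16 SE (95% interval -0.03 to 0.69, adjusted p = 0.327). Without wild type replicate 3 it was 0.45 (unadjusted p = 0.0268, adjusted p = 0.219) and without Mov10-/- replicate 3 it was 0.43 (unadjusted p = 0.0273, adjusted p = 0.29), with the groups apart in each case. Its paralogs Parva and Parvg had 1 and 0 CLIP-seq reads.

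Of the remaining genes, Gnl3l (ENSMUSG00000025266, chromosome X, 150983141 to 151017322, minus strand) encodes a GTP-binding protein of the nucleolus that takes part in ribosome biogenesis. CLIP-seq gave it 4, 2, 4 and 2 reads, a total of 12, and its ratio was 18.8 in the average of replicates 1, 2 and 3 and 8.26 in replicate 5 (exact Poisson interval 1.00 to 29.8). Its level was 71.1, 30.3 and 45.8 CPM in wild type and 81.9, 56.7 and 65.8 CPM in Mov10-/- testes. Wild type replicate 2 was the lowest library and wild type replicate 1 lay among the Mov10-/- libraries. The log2 fold change of 0.48 ± 0.29 SE (95% interval -0.20 to 1.15, adjusted p = 0.444) was 0.23 without wild type replicate 2 and 0.83, with the groups apart (unadjusted p = 0.00901, adjusted p = 0.166), without wild type replicate 1. Its relatives Gnl1, Gnl2 and Gnl3 had 0 CLIP-seq reads, although Gnl1 stood at 45.5 ± 4.69 RPKM in wild type.

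D10Wsu102e (ENSMUSG00000020255, chromosome 10, 83360221 to 83488505, plus strand) is a protein-coding gene named after its locus. It had 5, 8, 5 and 11 CLIP-seq reads. Its level was 183, 114 and 152 CPM in wild type and 202, 169 and 193 CPM in Mov10-/- testes. Wild type replicate 1 lay among the Mov10-/- libraries, and the log2 fold change was 0.33 ± 0.17 SE (95% interval -0.06 to 0.73, adjusted p = 0.357). It was 0.18 without wild type replicate 2 and 0.49, with the groups apart (unadjusted p = 0.0154, adjusted p = 0.188), without wild type replicate 1. The groups also lay apart without Mov10-/- replicate 3, at 0.40.

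Natd1 (ENSMUSG00000018931, chromosome 11, 60902246 to 60914750, minus strand) encodes a small protein with an N-acetyltransferase domain. It had 2, 1, 3 and 5 CLIP-seq reads. Its level was 134, 139.8 and 139 CPM in wild type and 151, 158 and 143 CPM in Mov10-/- testes. It is the gene in which the groups lay apart, by a narrow margin, with a log2 fold change of 0.13 ± 0.09 SE (95% interval -0.07 to 0.33, adjusted p = 0.472). With DESeq2's size factors in place of TMM, or without wild type replicate 1, the groups overlapped.

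**Figure D5:**
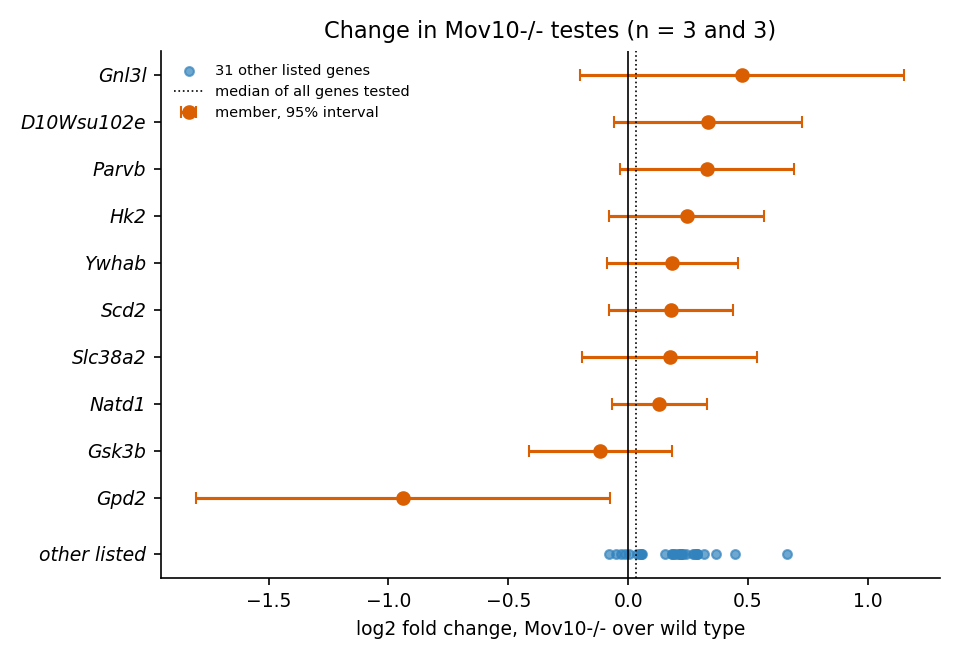
Log2 fold change in Mov10-/- over wild type testes (x axis) of the 10 genes with 95% intervals from edgeR's quasi-likelihood fit, and of the 31 other genes of the list as blue points in the lowest row, with a dotted line at the median of all genes tested. The interval of Gpd2 alone leaves out 0, before adjustment for multiple testing.

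Of the 31 other genes on the list, 21 had at least 1 CLIP-seq read and 7 reached 10 reads in each assay. Mlec, which encodes a sugar-binding protein of the endoplasmic reticulum, led with 34 reads and a ratio of 8.37. Rnf44, which encodes a RING finger protein, had 21 reads and a ratio of 6.66, and the ethanolamine kinase gene Etnk1 had 16 reads and a ratio of 2.91. Lasp1, which encodes an actin-binding protein, had 16 reads and a ratio of 7.88. Ddx6, which encodes an RNA helicase of processing bodies, had 12 reads and a ratio of 3.90. Rara, the gene of retinoic acid receptor alpha, also had 12 reads, with a ratio of 7.46, and F11r, which encodes a tight junction protein, had 10 reads and a ratio of 8.14. None of the 31 had a ratio above 10 with at least 10 reads.

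In Mov10-/- testes 0 of these 31 genes passed the call, with edgeR's quasi-likelihood test, its exact test, DESeq2 or limma voom. Their median log2 fold change was 0.21, 27 of 31 (87.1%, against 53.8% of all genes) were above 0 and 5 (16.1%) had an unadjusted p under 0.05 on the higher side, against 5.58% of all genes. In 11 of the 31 (35.5%, against 11.9% of all genes) every Mov10-/- library lay above every wild type library, and in 0 below (14.1% of all genes). Among the 5, Lasp1 had a log2 fold change of 0.29 ± 0.10 SE (adjusted p = 0.198) and Rara 0.27 ± 0.10 SE (adjusted p = 0.221). Ntn1, with 0 CLIP-seq reads, had the largest, 0.66 ± 0.20 SE (adjusted p = 0.178). Usp22, with 5 reads, had 0.29 ± 0.12 SE (adjusted p = 0.266) and Vapb, with 2 reads, 0.22 ± 0.09 SE (adjusted p = 0.278). The groups lay apart in each of the 5. Without wild type replicate 2 every Mov10-/- library lay above in 10 of 31 (32.3%, against 14.4% of all genes). In that setting 2 (6.45%, against 3.02% of all genes) had an unadjusted p under 0.05 on the higher side, and the median was 0.10. The 5 genes with an unadjusted p under 0.05 became 0 without Mov10-/- replicate 2, 2 without Mov10-/- replicate 4 and 1 with the replicate block, where 3.16%, 3.65% and 1.76% of all genes lay on the higher side. The 31 genes, like the 10, were selected on a ratio to P21 testis RNA-seq. The part of that selection in these counts was not tested. No test of the list as a whole was made.

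The 25 factors of nonsense-mediated decay, the pathway of UPF1, were all tested and 0 passed the call with any of these 4 tests. At an unadjusted p under 0.05 there were 0 in either direction with the quasi-likelihood test (11.9% of all genes lower and 5.58% higher). With each of the other tests there was 1 on the higher side, where 5.18% to 5.90% of all genes lay. Their median log2 fold change was 0.06, 18 of 25 (72%, against 53.8% of all genes) were above 0, and in 4 of them (16%, against 11.9% of all genes), Rbm8a, Gspt1, Gspt2 and Pnrc2, every Mov10-/- library lay above every wild type library. CLIP-seq reads fell on 7 of the 25, and 0 reached 10 reads.

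Cell type markers moved between the libraries as well. Of 14 spermatid markers tested, 11 had an unadjusted p under 0.05 on the lower side, where 11.9% of all genes lay. The summed level of the list was 391 to 1095 CPM in wild type and 201 to 378 CPM in Mov10-/- libraries. The Sertoli cell list summed to 801 to 963 CPM in wild type and 989 to 1136 CPM in Mov10-/- libraries, and the peritubular and endothelial list to 464 to 525 and 571 to 705 CPM. The spermatocyte list (1567 to 1587 and 1488 to 1797 CPM), the spermatogonia list (486 to 601 and 578 to 654 CPM), the Leydig cell list (468 to 720.4 and 582 to 803 CPM), the macrophage list (286 to 462 and 353 to 489.8 CPM) and the adipocyte list (109.6 to 199 and 139 to 172 CPM) overlapped between the genotypes. Lipe, which encodes a lipase also present in germ cells, was the largest part of the adipocyte sum in every library. It made up most of that sum in wild type only. Its level was 67.1, 139.8 and 63.4 CPM in wild type and 58.6, 75.5 and 65.1 CPM in Mov10-/- testes, so the overlap of the sums rests largely on this gene. Of the 10 adipocyte markers 3, Cfd, Cidec and Fabp4, had an unadjusted p under 0.05 on the higher side, where 5.58% of all genes lay. Their log2 fold changes were 3.12, 2.35 and 1.60 (adjusted p = 0.15 in each, quasi-likelihood test). Every Mov10-/- library lay above every wild type library in 4 of the 10, these 3 and Retn (11.9% of all genes). The same held for 5 of 10 peritubular and endothelial, 2 of 11 Sertoli cell, 2 of 11 spermatogonia and 1 of 13 spermatocyte markers. Counts on the higher side at an unadjusted p under 0.05 were 3 of 11 Sertoli cell, 2 of 10 peritubular and endothelial and 1 of 11 spermatogonia markers (5.58% of all genes). On the lower side lay 1 of 10 macrophage markers (11.9% of all genes). The part of cell composition in the values of the 10 genes was not tested.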

How the data were processed

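RNA was measured in 4 CLIP-seq and 6 RNA-seq libraries. The files deposited by the authors hold unnormalized counts of reads for every Ensembl gene. For RNA-seq (stranded mRNA libraries) they trimmed adapters, mapped reads to mm10 with STAR and counted them with htseq-count on Ensembl annotation. Per the labels the CLIP-seq files name the same tools, while adapter removal and duplicate removal for CLIP-seq are not given in the sources used here. Lines of reads not on genes made up 52.8% to 71.7% of the reads in the RNA-seq and over 99.9% in the CLIP-seq files and were left out. In CLIP-seq 99.48% to 99.57% of all reads were not aligned. In RNA-seq it was 57.2% in Mov10-/- replicate 3 and 26.5% to 35.9% in the other libraries. Of reads placed on or outside genes, without ambiguous ones, 82.2% to 90.9% lay outside genes in CLIP-seq and 25.6% to 28.9% in RNA-seq. Symbols, coordinates and UTR lengths came from GENCODE release M21, which matched 55240 of 55421 genes.

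Genes above 1 RPM in at least 3 of 6 RNA-seq libraries were fitted with edgeR 4.0.16 in R 4.3.3 (TMM, quasi-likelihood test, Benjamini-Hochberg adjustment over all genes tested). Genes changed more than 2-fold with adjusted p below 0.05 were called. SE is the log2 fold change over the square root of F, and intervals use the t distribution of the fit. DESeq2 1.42.0, edgeR's exact test, limma 3.58.1 (voom), other scalings, no filter, a replicate block and leaving out each library were alternatives. The fits were tested on simulated data. The smallest p that a permutation of 3 against 3 can give is 0.1, so none was used.

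The CLIP-seq ratio used RPM over reads on genes, at least 10 reads in each assay, and replicates 1, 2 and 3 averaged. The minimum of 10 reads was taken over the sum of all libraries of an assay, without that averaging. Intervals and floors have 95% confidence and 3 counts. RNA-seq depth was 5083407 to 9230540 and CLIP-seq depth 3404 to 4934 reads on genes. Each RNA-seq library came from the testes of 1 mouse, while the labels do not tie the CLIP-seq libraries to animals. Named were the 10 genes, Mov10, Upf1, the other listed genes that reached 10 reads in both assays, and decay factors by counts. Paralogs with the most CLIP-seq reads or the highest wild type level in their family were named too. Further names were added after their values were seen. These were Lasp1, Rara, Ntn1, Usp22 and Vapb in the genotype comparison, Parva, Parvg, Gnl2, Gnl3 and the 4 decay factors whose groups lay apart. The members, gene lists and tests were chosen with earlier results of these data known. Python 3.11.15 was used for tables and figures.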

Additional observations from a re-analysis of the deposited data

Results flagged for a closer look

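In 2 of the 10 genes a CLIP-seq library lay far from the other 3 by Dixon's criterion. Its nominal rate of about 1 in 20 is for independent, continuous values and does not hold for so few reads. Gsk3b had 405 RPM in replicate 5 and 0 in replicates 1, 2 and 3. Hk2 had 0 RPM in replicate 5 and 253 to 294 RPM in the others. These values are 2 reads for Gsk3b and 1 read per library for Hk2, and replicates 1, 2 and 3, counted as 1 library, differed by less than the sampling noise.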

How the results depend on the processing

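The number of the 10 genes called was 0 under all alternatives run, and their median log2 fold change (0.18) lay between 0.12 and 0.29. The number of all genes called was 1 in the analysis as reported, 10 without a filter, 184 with a replicate block, 1039 with DESeq2, 1101 with edgeR's exact test, 2 with limma voom and 0 to 1 with a library left out (0 without Mov10-/- replicate 3 or 4). Genes of the 10 with an unadjusted p under 0.05 numbered 2 with the replicate block (Gpd2 and Gnl3l), 0 with limma voom and 0 to 2 with a library left out. Over all genes the shares in the same settings were 9.45%, 16.8% and 9.49% to 17.6%. The 2 of 10 with the replicate block lay above the share of that setting, and the other counts were near or under theirs. Without wild type replicate 1 the 2 genes, D10Wsu102e and Gnl3l, were on the higher side (20%, against 5.94% of all genes). Genes of the 10 with groups apart numbered 0 with DESeq2's size factors and 1 to 4 with a library left out (3 without Mov10-/- replicate 3 or 4 or wild type replicate 3, 4 without wild type replicate 1), where 28.9% to 41.1% of all genes lay apart in either direction. The 4 without wild type replicate 1 were on the higher side (40%, against 19.5% of all genes). So were the 3 without Mov10-/- replicate 3 or 4 (30%, against 19.2% and 16.1% of all genes). The log2 fold change of Gsk3b, -0.12, lay between -0.21 and 0.0017 with a library left out and was above 0 without Mov10-/- replicate 3. The 2 replicate numbers shared by the genotypes gave correlations of deviations of -0.476 and -0.346, against -0.284 to 0.47 for unlike numbers. Libraries of like number were thus not more alike, but 2 correlations are too few to settle whether libraries share a litter or batch. In the replicate block only these 2 numbers hold a library of each genotype. All placed reads as the total gave 0 of the 10 and 19 of all genes with a ratio above 10 and a median ratio of the 10 of 1.10, TMM across both assays 0, 20 and 1.245, and a minimum of 1 read 797 genes, against 3, 107 and 5.40. The number above 10 among the 10 genes was 2 to 3 with a library left out. CLIP-seq depth limits every ratio, since 1 read is worth over 200 RPM.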
